A study of Mus musculus with 12 samples.

Results

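The genes described here are 36 subunits of the glutamate and GABA receptors, taken by symbol from the 55357 genes counted in each of 12 RNA libraries. They fall into 4 AMPA receptor genes (Gria), 7 NMDA receptor genes (Grin), 5 kainate receptor genes (Grik), the delta receptor gene Grid1, 7 metabotropic glutamate receptor genes (Grm), 10 GABA-A receptor genes (Gabra, Gabrb, Gabrg and Gabrd) and the 2 GABA-B receptor genes (Gabbr). Genes of these families outside the 36 were not analysed here, so each share of a class given in the text is a share among the named members.

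Messenger RNA was sequenced from the cerebral cortex and hippocampal formation of 6 mouse pups at postnatal day 5, and from each pup a rostral piece and a caudal piece were taken as separate libraries. The 3 control pups (T4, T8 and T70) carried 1 floxed Egfr allele (EgfrF/+) according to the design text, while their genotype label reads WT. The 3 knockout pups (cKO, for conditional knockout; T3, T6 and T80) carried 2 floxed alleles (EgfrF/F) and a Nestin-driven recombinase, which acts in neural progenitors and therefore in their neuronal and glial descendants. The labels do not say whether the controls carried the recombinase, so loss of Egfr, the number of floxed alleles and presence of the recombinase cannot be told apart between the genotypes.

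Ionotropic glutamate receptors are tetrameric cation channels that carry most fast excitation in the brain, GABA-A receptors are pentameric chloride channels, and metabotropic glutamate and GABA-B receptors signal through G proteins. In rodent cortex the subunit make-up changes over the first postnatal weeks: NMDA receptors with GluN2B (Grin2b), GluN2D (Grin2d) and GluN3A (Grin3a) are typical of the young brain and GluN2A (Grin2a) rises later, while GABA-A receptors with alpha2, alpha3 and alpha5 subunits precede those with alpha1. In bulk tissue, fewer cells of a type and less RNA per cell cannot be told apart.

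The stretch of 250 bases before the transcription start is shown for 4 members whose transcripts differed between the pieces of control cortex, 2 of them higher caudally (Gria4 and Grik2) and 2 lower caudally (Grm3 and Grik3). The sequences are RefSeq's, on build GRCm38.p6, read 5′ to 3′ on the strand of the gene, with the GC box GGGCGG or its reverse complement in capitals. The Gria4 window lies on the minus strand at chr9:4796235-4796484, that of Grik2 on the minus strand at chr10:49788755-49789004, that of Grm3 on the minus strand at chr5:9725353-9725602 and that of Grik3 on the plus strand at chr4:125490446-125490695.
Gria4: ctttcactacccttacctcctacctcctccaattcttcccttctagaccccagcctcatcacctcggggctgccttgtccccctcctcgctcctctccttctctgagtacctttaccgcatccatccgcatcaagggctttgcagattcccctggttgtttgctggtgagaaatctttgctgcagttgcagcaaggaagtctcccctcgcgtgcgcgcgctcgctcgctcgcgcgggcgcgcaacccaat
Grik2: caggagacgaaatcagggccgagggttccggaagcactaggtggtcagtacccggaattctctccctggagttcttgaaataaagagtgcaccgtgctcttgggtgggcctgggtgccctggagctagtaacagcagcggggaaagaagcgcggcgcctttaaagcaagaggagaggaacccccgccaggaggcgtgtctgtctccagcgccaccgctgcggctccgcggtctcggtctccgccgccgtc
Grm3: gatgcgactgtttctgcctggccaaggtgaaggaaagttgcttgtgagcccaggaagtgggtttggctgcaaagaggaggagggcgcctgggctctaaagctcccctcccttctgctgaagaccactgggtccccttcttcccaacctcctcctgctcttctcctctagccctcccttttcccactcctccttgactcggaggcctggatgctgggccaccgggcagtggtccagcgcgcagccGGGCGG
Grik3: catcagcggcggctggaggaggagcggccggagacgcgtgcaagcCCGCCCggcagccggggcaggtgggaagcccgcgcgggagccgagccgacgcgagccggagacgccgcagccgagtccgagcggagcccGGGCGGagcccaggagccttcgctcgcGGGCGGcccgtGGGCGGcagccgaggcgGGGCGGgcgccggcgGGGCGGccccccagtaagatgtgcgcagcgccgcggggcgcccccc
The Grik3 window held 6 GC boxes and 82.0% G and C, the Grm3 window held 1 GC box and 62.4%, and those of Gria4 (58.8%) and Grik2 (62.8%) held none. The table of promoters had 33 entries for 26 of the 36 members. A GC box on either strand stood in 15 of these 33 windows (45.5%), against 32.7% of all 32851 promoters of the same length. The cyclic AMP response element half-site TGACG stood in 6.06% of the member windows against 17.8% of all, and the E-box CANNTG in 36.4% against 66.2%. The motifs were searched on both strands and separately, so matches could overlap. A match is only a description of these letters.

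Total counts ran from 43810458 to 87170315 per library. Egfr itself was at 3.67, 3.50 and 4.33 RPKM (counts scaled by library size with TMM normalisation and divided by exon length) in the rostral and 4.01, 3.47 and 3.56 in the caudal control pieces, and at 0.909, 0.564 and 1.11 in the rostral and 0.506, 1.30 and 0.841 in the caudal cKO pieces. On counts summed per animal, the log2 difference of Egfr between cKO and control was -2.10 (SE 0.11), with a Benjamini-Hochberg adjusted p of 0.0019 in edgeR's quasi-likelihood F test. By the same test Egfr did not pass in the rostral fit (-2.14, SE 0.25, adjusted p = 0.186) or the caudal fit (-2.05, SE 0.31, adjusted p = 0.102). A difference of that size could thus miss the threshold in either piece. Sex, read from Xist and Y-linked transcripts, was not balanced: the controls comprised 2 females and 1 male, the cKO pups 1 female and 2 males. The rostral cKO library of T6 stood apart: its median absolute log2 deviation from its group was 0.403, against 0.0921 to 0.247 in the other 11 libraries, its summed astrocyte markers were at 859 CPM against 1588 to 2494, and its summed glutamatergic neuron markers at 2049 CPM against 944 to 1270. The rostral cKO library of T3 held 542 CPM of hippocampal markers, against 229 to 282 in the other 5 rostral libraries, and more than the 421 CPM of its own caudal piece.

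Across the 12 libraries the GABA-B subunit Gabbr1 had the highest mean level of the 36 members, with a lowest value of 62.3 RPKM, a highest of 80.4 and a mean of 73.5 ± 6.23 (SD over the 12 libraries, as for the other means given with a range over all libraries). It was followed by Gabra5 (50.1 ± 7.15), Grin2b (47.7 ± 8.57), Gria1 (44.7 ± 10.4), Gabbr2 (43.7 ± 9.56), Grm3 (40.2 ± 7.22) and Grm5 (36.3 ± 2.40), all in RPKM. Neighbours in this order from Gabbr1 to Gria2 (27.7 ± 2.01) had overlapping ranges, with the highest Gabra5 value at 67.8 RPKM. At the other end, Grin2c reached 0.104 to 0.411 RPKM, while Grin3b, Grm6 and Gabra6 were at or near 0.

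**Figure D1:**
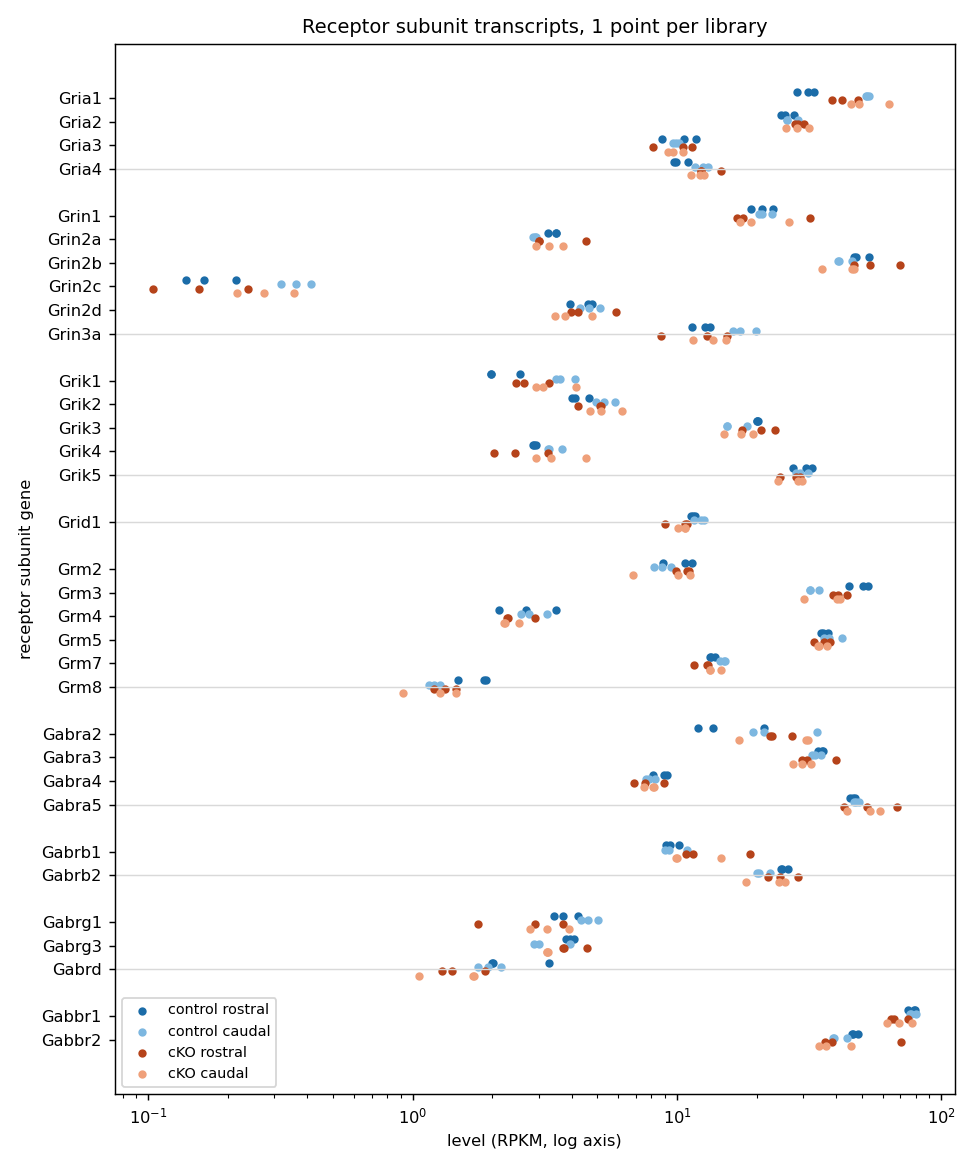
Level of the 33 subunit genes that passed the low-count filter, in RPKM on a log axis, with 1 point per library in 4 colours for genotype and piece; grey lines separate receptor classes. Gabbr1 sits at 62.3 to 80.4 RPKM at the right and Grin2c at 0.104 to 0.411 at the left. The spread within a gene is small beside this whole range, but many genes of similar level overlap.

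Those 3 genes fell below the filter on low counts in each comparison reported here, and in the alternatives that took them in (DESeq2, edgeR with no such filter and, for Grin3b, some fits with 1 animal left out) none was called. Grin3b, which encodes the GluN3B subunit typical of motor neurons, had 0 to 24 counts per library and shares 32.1% of its exon bases with Tmem259 on the other strand, so its few reads are uncertain. Grm6, the receptor of retinal ON bipolar cells, had 0 to 6 counts. Gabra6, the alpha subunit of cerebellar granule neurons, also had 0 to 6 counts, while 4 granule neuron markers (Barhl1, Zic1, Pax6 and Cbln3) summed to 21.4 to 53.1 CPM, with Barhl1 at 0 to 0.175 and Cbln3 at 0.962 to 1.47 CPM.

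Among the AMPA receptor genes, Gria1 (GluA1) made up 46.8% of the summed RPKM on average (38.7% to 55.7% by library), Gria2 (GluA2, which sets the calcium permeability of the channel) 29.7%, Gria4 12.7% and Gria3 10.8%. Gria1 was above Gria2 in 12 of 12 libraries and Gria2 above Gria4 in 12 of 12, while Gria4 was above Gria3 in 10 of 12. The order of Gria1 and Gria2 depended on the length used. The ratio Gria1 to Gria2 was 1.15 to 2.22 per exon length and 0.446 to 0.864 in counts, and with the length of the longest coding transcript it passed 1 in 8 of 12 libraries. The annotated exons of Gria2 cover 15548 bases and its longest coding transcript 10371, against 6043 and 5546 for Gria1.

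Of the NMDA receptor genes, the subunits typical of the young brain (Grin2b, Grin2d and Grin3a) were each above Grin2a in 12 of 12 libraries by exon length. In counts, without length, this held for Grin2b and Grin3a in 12 of 12 libraries but for Grin2d in 0 of 12, at 0.427 to 0.649 of Grin2a. Grin2b supplied 85.6% of the summed Grin2 RPKM (83.7% to 87.9% by library), Grin2d 8.06%, Grin2a 5.93% and Grin2c 0.464%. Grin2b exceeded Grin2a 12-fold to 17.9-fold in RPKM in the 12 libraries, and 10.1-fold to 15.1-fold with the length of the longest coding transcript, so no library came near equal levels. The obligatory subunit Grin1 was at 21.4 ± 4.28 RPKM, below Grin2b in 12 of 12 libraries by exon length. That order also rested on length: with the longest coding transcript Grin2b was the higher in 5 of 12 libraries, and the share of Grin2b among all Grin members was 52.2% by exon length and 37.7% by the longest coding transcript, against 23.3% and 36.9% for Grin1. Grin1 shares 13.5% of its exon bases with the antisense gene Grin1os, whose reads may not be told apart. Grin3a, which lowers calcium entry when it joins the receptor, was the third of the class at 14.1 ± 2.99 RPKM, with Grin2d at 4.45 ± 0.659 and Grin2a at 3.28 ± 0.484 RPKM.

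**Figure D2:**
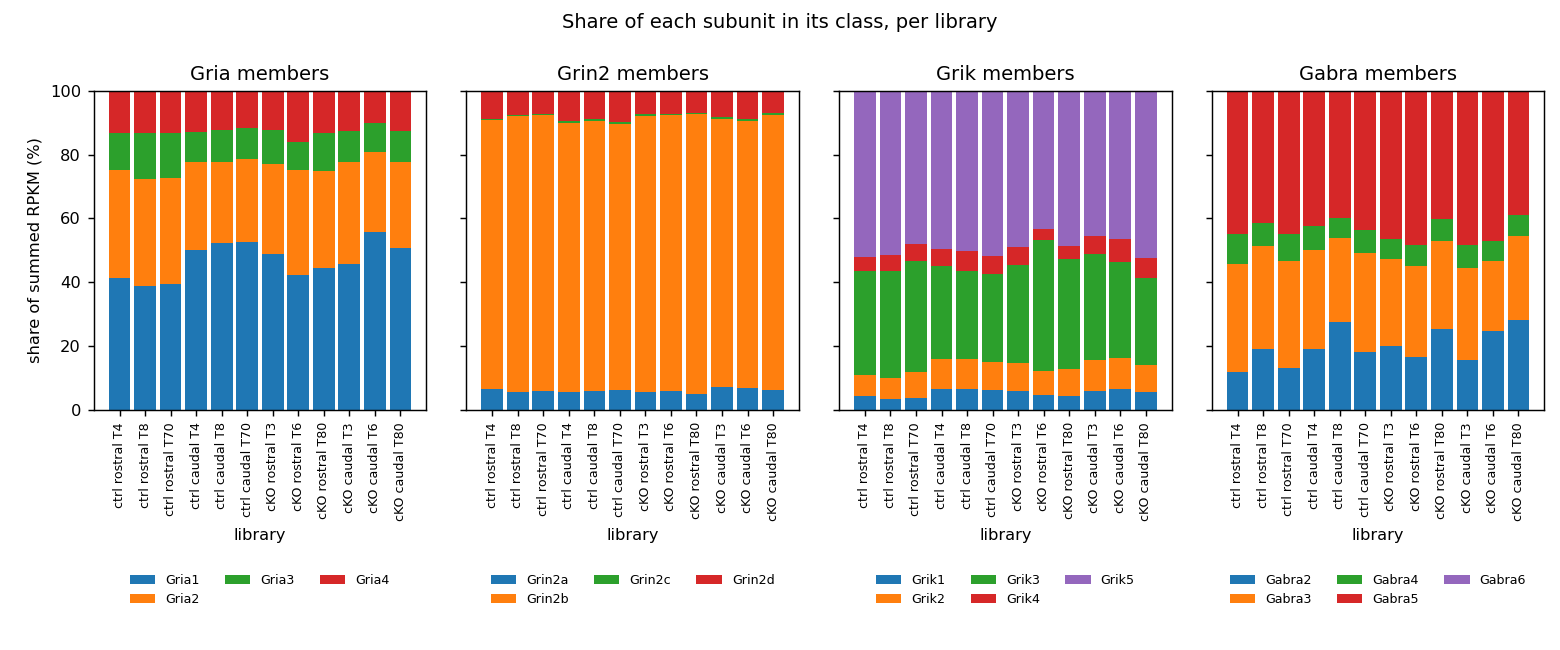
Share of each member in the summed RPKM of its class, in percent, with 1 stacked bar per library for the AMPA (Gria), GluN2 (Grin2), kainate (Grik) and GABA-A alpha (Gabra) genes. Grin2b takes 83.7% to 87.9% of the Grin2 bars in every library, while the Gria1 share in controls is 39.8% rostrally and 51.6% caudally on average.

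Among the kainate receptor genes, the high-affinity subunit Grik5 (GluK5) held 49.1% of the summed RPKM and Grik3 31.9%, ahead of Grik2 (8.49%), Grik4 (5.34%) and Grik1 (5.19%). GluK4 and GluK5 form channels only together with GluK1, GluK2 or GluK3. By exon length and by the longest coding transcript Grik5 was above Grik3 in 12 of 12 libraries, but in counts in 3 of 12, where Grik3 held 39.8% and Grik5 35.3%. Grik4 and Grik1 could not be ordered, with Grik4 higher in 6 of 12 libraries. Grid1, which encodes the synapse-organising GluD1, was at 11.1 ± 0.987 RPKM and varied little (8.99 to 12.7).

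The group II receptor Grm3 and the group I receptor Grm5 led the metabotropic genes with 38.4% and 35.1% of the summed RPKM. Grm3 was the higher in 8 of 12 libraries by exon length, in 2 of 12 by the longest coding transcript and in 0 of 12 in counts. Their order thus depended on the length used, and by exon length also on the piece in controls. The ratio Grm5 to Grm3 per exon length was 0.733 ± 0.0685 in the rostral and 1.18 ± 0.0486 in the caudal controls (SD, n = 3). In cKO it was 0.863 ± 0.0578 and 0.964 ± 0.218. The presynaptic receptor Grm7 followed with 13.3%, then Grm2 (9.39%), Grm4 (2.51%) and Grm8 (1.31%).

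Gabra5, the alpha subunit of extrasynaptic receptors in hippocampus and cortex, made up 43.9% of the summed RPKM of the 5 alpha members, Gabra3 29.1%, Gabra2 19.9% and Gabra4 7.15%. Gabra5 was above Gabra3 in 12 of 12 libraries and Gabra3 above Gabra2 in 9 of 12. Gabra5 was above Gabra2 in 12 of 12 by exon length and by the longest coding transcript, but in 4 of 12 in counts, where Gabra2 led the class with 34.2% against 29.8%. Gabrb2 was 1.25-fold to 2.74-fold above Gabrb1 by exon length, but in counts it was the higher in 7 of 12 libraries. Gabrg1 (3.63 ± 0.890 RPKM) and Gabrg3 (3.61 ± 0.499 RPKM) each led the other in 6 of 12 libraries, and Gabrd, which forms extrasynaptic receptors, was at 1.85 ± 0.555 RPKM. Gabbr1, the ligand-binding partner of the GABA-B heterodimer, held 63.0% of the Gabbr sum, and its ratio to Gabbr2, the partner that couples to G proteins, was 1.63 to 1.97 in 11 libraries and 1.07 in the rostral cKO library of T6.

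The comparison of caudal with rostral pieces asks how receptor transcripts were distributed along the cortex. Its main fit took both pieces of a pup as separate libraries and did not use the pairing. In controls 14 of the 33 tested members passed an adjusted p of 0.05 (42.4%), against 12.2% of all 20461 genes tested, with 8 members higher caudally (6.3% of all genes) and 6 lower (5.88%). The values did not overlap between the pieces for 16 members, 9 higher (16.9% of all genes) and 7 lower (14.4%), against 31.3% of all genes in either direction. An unadjusted p under 0.05 was reached by 19 members (25.8% of all genes). The median absolute log2 fold change was 0.23 over the members and 0.13 over all genes.

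Gria1 (chromosome 11, 56902213 to 57221070, GRCm39, as for the other gene positions) was at 31.2, 28.5 and 32.9 RPKM in the rostral and 51.9, 53.4 and 52.3 in the caudal control pieces of T4, T8 and T70. Every caudal value was above every rostral value, giving a log2 difference of 0.76 with SE 0.06 and an adjusted p of 3.07e-05 (from the same edgeR test, as for the adjusted p-values that follow unless another tool is named). Gria4 (GluA4) rose by 0.28 (SE 0.06, adjusted p = 0.0167), from 10.2 ± 0.673 to 12.5 ± 0.720 RPKM (SD, n = 3). Gria2 and Gria3 had log2 fold changes of 0.04 (SE 0.06) and -0.07 (SE 0.09) and overlapped. With them, the ratio Gria1 to Gria2 went from 1.18 ± 0.0318 rostrally to 1.95 ± 0.131 caudally in RPKM.

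Of the kainate receptor genes 4 of 5 passed, 3 of them higher caudally. Grik1 (chromosome 16, 87692788 to 88087153), encoding GluK1, was at 2.55, 1.97 and 1.97 RPKM in the rostral and 4.11, 3.62 and 3.49 RPKM in the caudal control pieces. The pieces did not overlap and differed by a log2 value of 0.79 (SE 0.11, adjusted p = 0.00191). Grik2 rose by 0.33 (SE 0.07, adjusted p = 0.0168), and Grik4 by 0.23 (SE 0.07) with an adjusted p of 0.04996 that ended under RLE scaling (adjusted p = 0.0539) and without any single animal. Grik3 went the other way, from 20.2, 20.0 and 20.0 RPKM to 18.4, 15.5 and 15.4 RPKM, which is -0.29 on the log2 scale (SE 0.07, adjusted p = 0.0191). Grik5 differed by -0.03 (SE 0.07).

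Among the NMDA receptor genes Grin3a (chromosome 4, 49661611 to 49845744) was at 11.4, 13.3 and 12.8 RPKM rostrally and 19.9, 17.3 and 16.3 RPKM caudally. Its caudal values all lay above the rostral ones, with a fitted log2 difference of 0.50 (SE 0.08, adjusted p = 0.00349). Grin2c rose from 0.172 ± 0.0382 to 0.364 ± 0.0463 RPKM (log2 fold change 1.09, SE 0.20, adjusted p = 0.00554), but with 38 to 174 counts per library it remained the scarcest tested member. Grin2a fell by 0.24 (SE 0.05, adjusted p = 0.0138). Grin2b had non-overlapping values of 46.6, 53.4 and 47.7 RPKM rostrally and 45.9, 41.1 and 40.5 caudally, but the difference of -0.22 on the log2 scale (SE 0.07, adjusted p = 0.0612) did not pass. Grin1 and Grin2d differed by 0.02 (SE 0.07) and 0.08 (SE 0.09). The ratio Grin2b to Grin2a was 14.5 ± 1.01 rostrally and 14.7 ± 0.858 caudally.

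**Figure D3:**
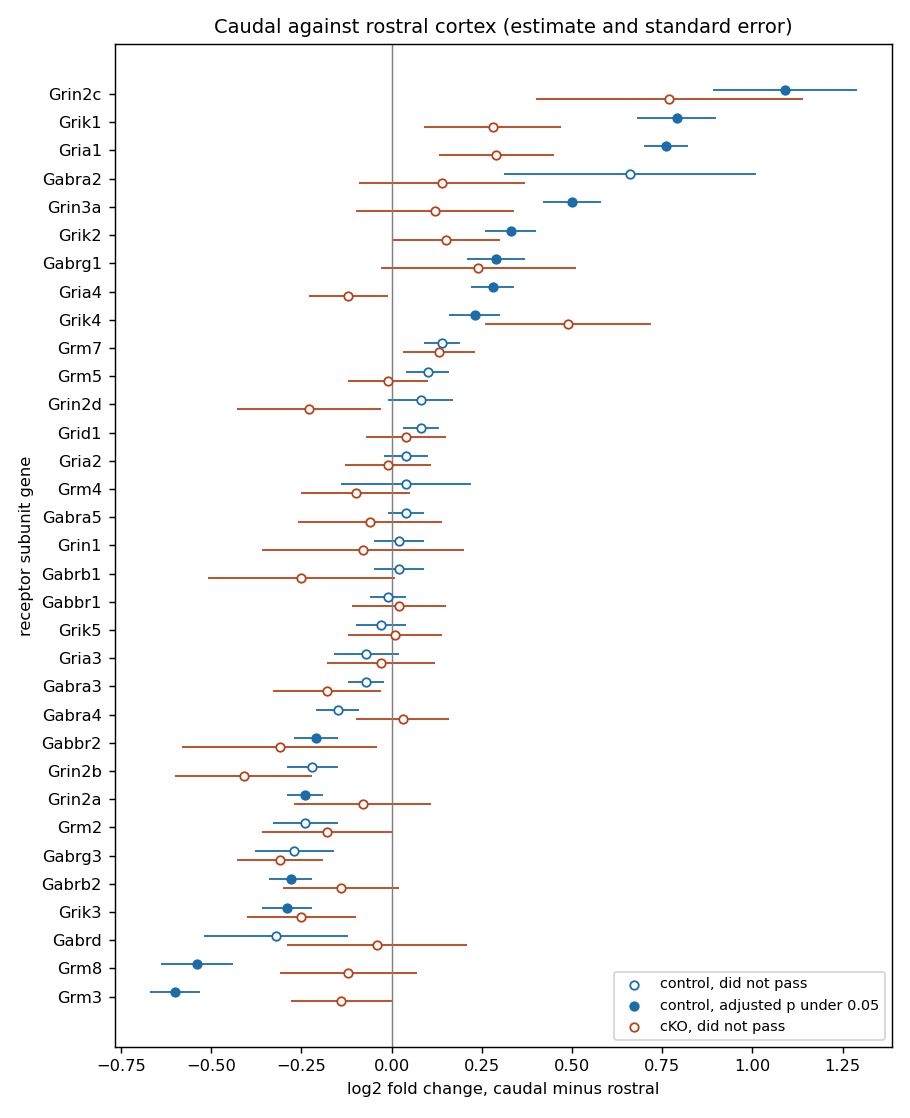
Log2 fold change of caudal against rostral pieces for the 33 tested members, with its standard error as a bar, in control (blue) and cKO (red); filled points passed an adjusted p of 0.05. In controls 14 points are filled, from Grin2c at 1.09 to Grm3 at -0.60, and in cKO none is.

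Grm3 (chromosome 5, 9535541 to 9775170), a receptor of neurons and astrocytes, was at 44.7, 52.7 and 50.6 RPKM in the rostral and 34.4, 31.9 and 31.8 RPKM in the caudal control pieces. It was lower caudally in each animal, and the fitted difference was -0.60 (SE 0.07, adjusted p = 0.000282). Grm8 fell by 0.54 (SE 0.10, adjusted p = 0.00465), from 1.75 ± 0.228 to 1.21 ± 0.0587 RPKM. Grm7 did not overlap between the pieces (13.3 to 13.9 RPKM against 14.5 to 15.2) but missed the threshold (log2 fold change 0.14, SE 0.05, adjusted p = 0.103). Grm2, Grm4 and Grm5 had log2 fold changes of -0.24, 0.04 and 0.10 and overlapped. Grid1 differed by 0.08 (SE 0.05).

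Of the 11 GABA receptor genes tested 3 passed, against 12.2% of all genes. Gabrb2 (GABA-A beta2) fell from 25.3 ± 0.780 to 21 ± 1.31 RPKM (log2 fold change -0.28, SE 0.06, adjusted p = 0.00919), and Gabbr2 from 47.0 ± 1.25 to 40.7 ± 2.7 RPKM (-0.21, SE 0.06, adjusted p = 0.0325). Gabrg1 rose from 3.79 ± 0.401 to 4.65 ± 0.331 RPKM (0.29, SE 0.08, adjusted p = 0.041). None of the alpha members passed. Gabbr1 was at 77.8 RPKM in both pieces.

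Gabra2 (chromosome 5, 71114940 to 71253192) varied between animals as well as between pieces. It was at 12, 21.3 and 13.7 RPKM in the rostral and 21.4, 33.8 and 19.3 in the caudal control pieces of T4, T8 and T70. The groups overlapped and the log2 fold change of 0.66 (SE 0.35) had an adjusted p of 0.332. Within each animal, however, the caudal piece was higher by 0.84, 0.67 and 0.49 on the log2 scale, and with the animal as a block the SE was 0.06 and the adjusted p 0.000121 (15 members passed with the block, and 15.4% of all genes).

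Gria1, Grin3a, Grik1 and Grm3 passed without each control animal in turn; the number of members passing was 6 without T8 (5.25% of all genes passed), 9 without T70 (7.19%) and 11 without T4 (8.21%). DESeq2 called 15 members (7.22% of all genes). In 1 fit over all 12 libraries, where the spread of the cKO libraries enters, Gria1 alone passed (adjusted p = 0.0267, with 0.361% of all genes). In the same control libraries hippocampal markers summed to 229 to 254 CPM rostrally and 361 to 439 CPM caudally, and interneuron markers to 199 to 278 and 283 to 387 CPM. The pan-neuronal markers ran the other way, with 7438 to 8066 CPM rostrally and 6960 to 7058 caudally, and the striatal markers reached 89.7 to 243 and 77.5 to 158 CPM. Choroid plexus markers summed to 2.34 to 2.87 CPM rostrally and 5.87 to 207 caudally, and meningeal fibroblast markers to 106 to 235 and 265 to 348 CPM. None of the 6 hippocampal, 6 striatal, 4 choroid plexus or 4 meningeal marker genes was at 0 in any library, and the part of these markers in the piece differences was not tested.

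In cKO, 0 of 33 members passed between the pieces, as did 0.0% of all 20944 genes. At an unadjusted p under 0.05 there was 1 member, Gabrg3 (log2 fold change -0.31, SE 0.12), against 1.66% of all genes, and DESeq2 called 0 members (0.0051% of all genes). Gria1 was at 48.4, 38.6 and 41.9 RPKM in the rostral and 45.6, 63.1 and 48.6 RPKM in the caudal cKO pieces of T3, T6 and T80. The groups overlapped, since T3 was lower caudally by 0.09 on the log2 scale while T6 was higher by 0.71. Grm3 was at 38.9, 40.7 and 44.0 RPKM rostrally and 40.4, 30.3 and 41.5 caudally, a difference of -0.14 (SE 0.14). Grin2b did not overlap (46.9, 69.6 and 53.6 RPKM against 35.3, 45.8 and 46.6), with a log2 fold change of -0.41 (SE 0.19). Grik4 (0.49, SE 0.23) and Grin2c (0.77, SE 0.37) had the next smallest p-values.

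Of the 14 members that passed in controls, 13 had the same sign in the cKO fit and 12 a smaller size. These members were chosen by their control differences, so a smaller size elsewhere follows in part from that choice. The matching shares over all genes are not given, so these counts say nothing particular to the members. The cKO animals were not alike: the caudal minus rostral difference had the control direction for 13 of these 14 members in T6, for 10 in T80 and for 4 in T3. In each control animal it held for 14 of 14, a count that the choice of these genes in the same libraries fixes in part. T3 is the animal whose rostral piece had more hippocampal marker RNA than its caudal piece. Its rostral piece also held 380 CPM of choroid plexus markers, against 0.852 to 3.12 in the other 5 rostral libraries and 218 in its own caudal piece, and 385 CPM of meningeal markers against 81.9 caudally. The pieces of T6 and T80 also differed in these markers. In T6 the hippocampal markers were at 282 CPM rostrally and 870 caudally, choroid plexus markers at 0.852 and 534, and meningeal markers at 19.4 and 493. In T80 these were at 265 and 568, 3.12 and 149, and 453 and 527 CPM. The part of these markers in the differences of T3, T6 and T80 was not tested.

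**Figure D4:**
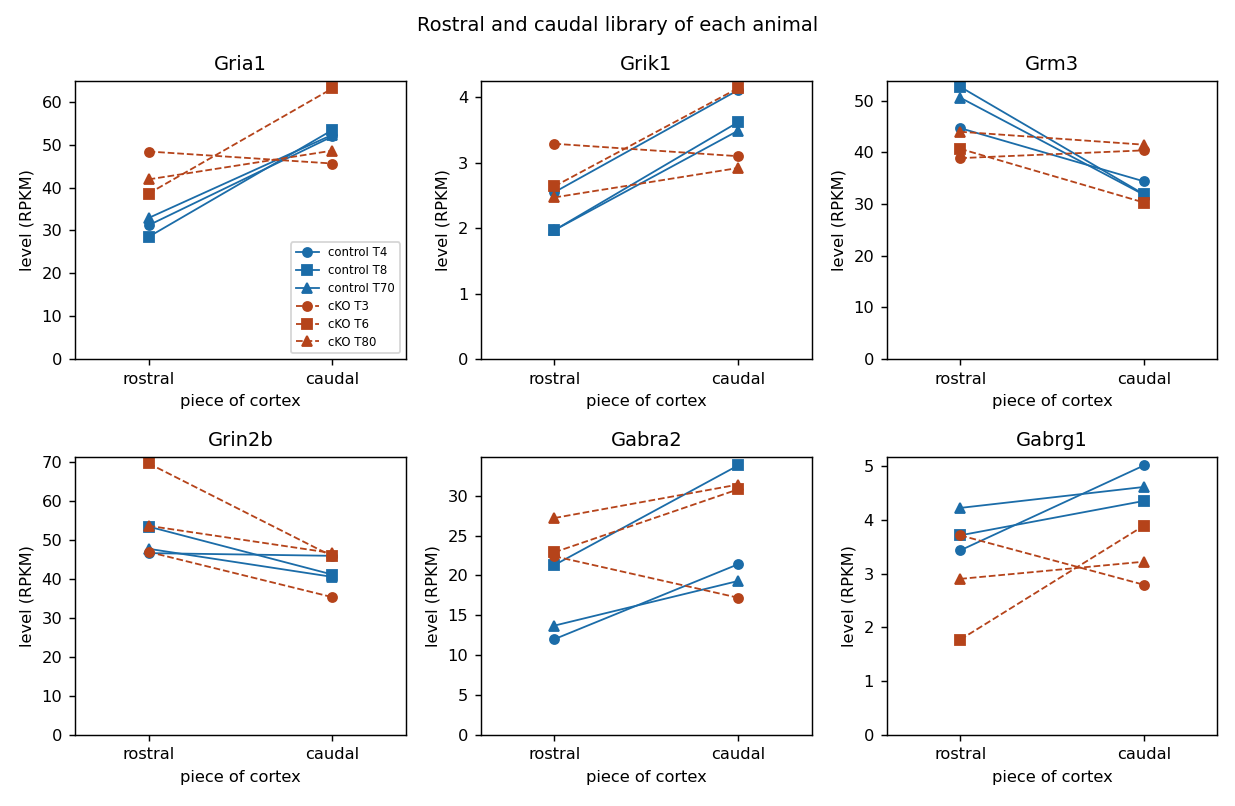
Level in RPKM of Gria1, Grik1, Grm3, Grin2b, Gabra2 and Gabrg1 in the rostral and the caudal library of each animal, joined by a line, with controls in blue and cKO in red dashes. The 3 control lines for Gria1 run from 28.5 to 32.9 up to 51.9 to 53.4, while that of cKO T3 runs from 48.4 to 45.6.

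The interaction asks whether the difference between the pieces differed between genotypes, and it uses the libraries of both comparisons. No member passed in edgeR (0 of 33, with 0.0% of all genes) and none in DESeq2 (0.033%), and 4 had an unadjusted p under 0.05 (12.1%, against 3.55% of all genes): Gria4 (-0.40, SE 0.13), Grm3 (0.46, SE 0.17), Gria1 (-0.47, SE 0.17) and Grik1 (-0.51, SE 0.23). A positive value means that the signed caudal minus rostral difference was higher in cKO. For Grm3 this difference was -0.60 in controls and -0.14 in cKO, so its size was smaller in cKO. Without animal T6, Gria1 (-0.69, SE 0.11, adjusted p = 0.00919) and Grm3 (0.59, SE 0.11, adjusted p = 0.0183) passed, as did 2.17% of all genes. The cKO animals of that fit were T3 and T80 alone. Their caudal minus rostral differences were -0.09 and 0.21 for Gria1, and 0.05 and -0.08 for Grm3. T3 is again the animal with more hippocampal marker RNA in its rostral than in its caudal piece, and the part of this was not tested.

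In rostral cortex no member differed between cKO and control at an adjusted p of 0.05 (0 of 33, with 0.0% of all 20599 genes), and DESeq2 called 0 members (0.939% of genes). An unadjusted p under 0.05 was reached by 7 members (21.2%, against 9.49% of all genes), and 11 did not overlap between genotypes, 5 higher (9.09% of all genes) and 6 lower (10.8%) in cKO, against 19.9% of all genes in either direction. The median log2 fold change was -0.01 over the members and 0.04 over all genes. This comparison and the control piece comparison share the rostral control libraries.

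The smallest p belonged to Gria1, whose values of 48.4, 38.6 and 41.9 RPKM in cKO all lay above the 31.2, 28.5 and 32.9 RPKM of the controls. The log2 difference was 0.48 (SE 0.12, adjusted p = 0.342), and 0.56 (SE 0.09, adjusted p = 0.0156) without T6, when 5.01% of all genes passed. The fit without T6 rests on T3, which had the highest value, and T80 as its cKO animals. Gria4 was at 12.3, 14.7 and 12.3 RPKM in cKO against 9.94, 9.72 and 11 (0.36, SE 0.10, adjusted p = 0.398). Gabra2 was at 22.4, 22.9 and 27.2 RPKM in cKO, each above the highest control value of 21.3 (0.63, SE 0.22, adjusted p = 0.468). Grm8 lay below the controls, with 1.20, 1.46 and 1.32 RPKM against 1.48, 1.86 and 1.90 (-0.39, SE 0.14, adjusted p = 0.465).

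Of the 33 members the T6 library had the highest of the 3 cKO values for 19 and the lowest for 10 in rostral cortex, and the highest for 19 and the lowest for 8 in caudal cortex. The shares over all genes are not given, so these counts say nothing particular to the members. Gabbr2 was at 70.3 RPKM in the rostral T6 library against 36.3 in T3 and 38.4 in T80, Grin1 at 31.8 against 16.9 and 17.8, and Gabrb1 at 18.8 against 11.5 and 10.8. Gabrg1 was lowest there, at 1.77 RPKM against 3.71 and 2.90, as was Grin3a, at 8.71 against 15.5 and 13. Without T6, Gabbr2 passed as lower in cKO (-0.32, SE 0.06, adjusted p = 0.0218), whereas with T6 its log2 fold change was 0.04 (SE 0.24).

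In caudal cortex again no member passed (0 of 33, against 0.0821% of 20705 genes). An unadjusted p under 0.05 was reached by 5 members (15.2%, against 14.5% of all genes), and 6 members did not overlap, all 6 lower in cKO, against 23.0% of all genes in either direction and 12.9% lower. Gabrg1 had the smallest p, with 5.01, 4.35 and 4.61 RPKM in controls and 2.79, 3.89 and 3.22 in cKO. Every cKO value was below every control value, and the log2 difference was -0.49 (SE 0.12, adjusted p = 0.176). DESeq2 called it (adjusted p = 0.0171), with 1.2% of all genes. So did edgeR without a filter on low counts (adjusted p = 0.013, 0.839% of genes) and without T6 (-0.62, adjusted p = 0.0298, 0.768% of genes). Grin3a was at 19.9, 17.3 and 16.3 RPKM in controls and 11.5, 15.3 and 13.7 in cKO (-0.40, SE 0.11, adjusted p = 0.224). Grid1 (-0.21, SE 0.07, adjusted p = 0.257) and Grm4 (-0.28, SE 0.11, adjusted p = 0.304) were also lower without overlap. Gria1, at 45.6 to 63.1 RPKM in cKO and 51.9 to 53.4 in controls, differed by 0.01 (SE 0.11).

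**Figure D5:**
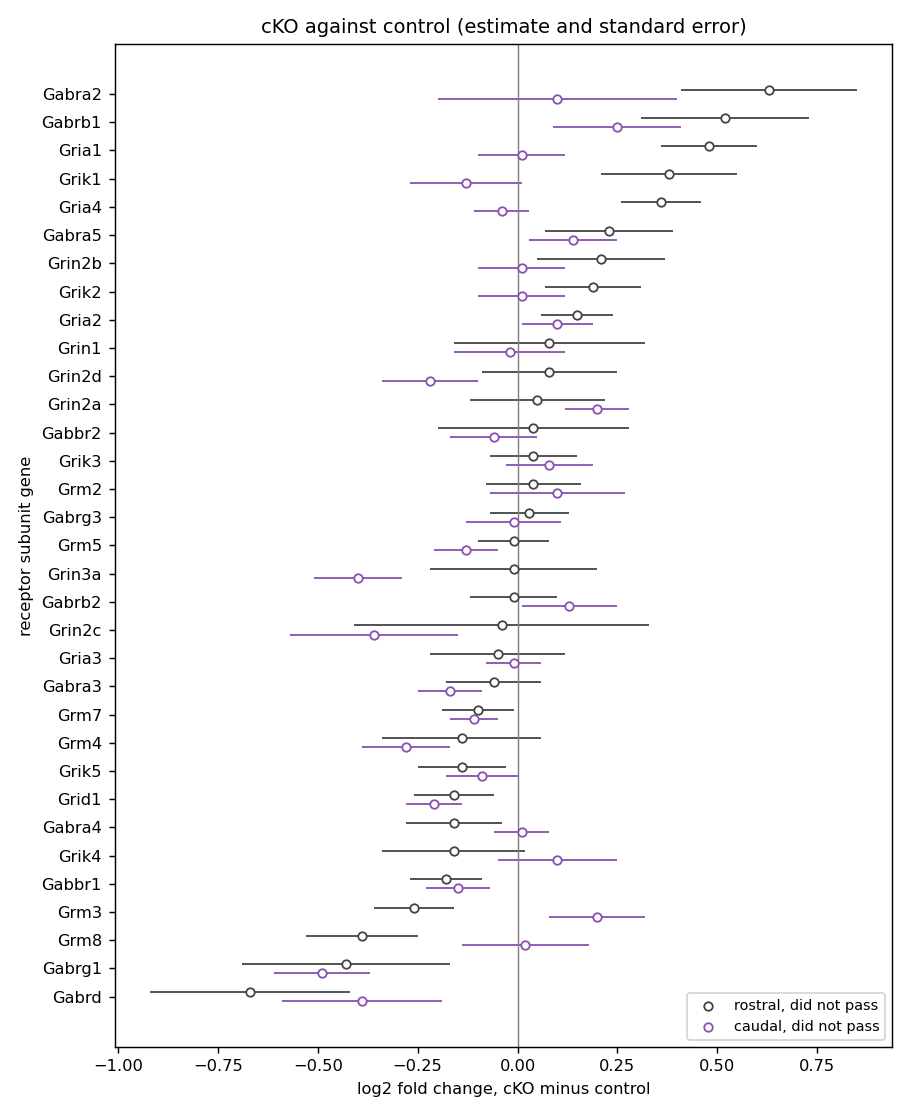
Log2 fold change of cKO against control for the 33 tested members, with its standard error as a bar, in rostral (grey) and caudal (purple) cortex. All points are open because none passed an adjusted p of 0.05; Gabrg1 lies at -0.43 and -0.49, while Gria1 lies at 0.48 rostrally and 0.01 caudally.

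On counts summed per animal, which use the same libraries as both pieces, no member passed in edgeR (0 of 33, against 0.179% of 22924 genes), 7 had an unadjusted p under 0.05 (21.2%, against 15.4% of all genes) and 12 did not overlap, 3 higher and 9 lower (26.0% of all genes, 11.8% higher and 14.3% lower). DESeq2 called 2 members lower, Gabrg1 (adjusted p = 0.000881) and Gabrd (adjusted p = 0.0274), with 1.74% of all genes. In edgeR, Gabrg1 differed by -0.48 (SE 0.09, adjusted p = 0.111), Gabrd -0.52 (SE 0.14, adjusted p = 0.203), Grin3a -0.25 (SE 0.09, adjusted p = 0.274) and Grid1 -0.20 (SE 0.08, adjusted p = 0.289). Without T6, Gabrg1 (-0.41, adjusted p = 0.0242), Gabbr2 (-0.25, adjusted p = 0.0319) and Gabbr1 (-0.23, adjusted p = 0.0372) passed, with 2.92% of all genes, and without a filter on low counts Gabrg1 alone passed (adjusted p = 0.0111, 0.754% of genes).

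Gabrg1 encodes the gamma1 subunit, which is found in astrocytes as well as in some neurons. Summed astrocyte markers (6 genes, none at 0 in any library) were at 1954 to 2179 CPM in the rostral and 2118 to 2446 in the caudal controls, and at 859 to 2075 and 1837 to 2494 CPM in cKO. Among them Aqp4 was at 212 to 246 CPM in the 6 control libraries and at 49.0 to 185 in the 6 cKO libraries, and Aldh1l1 at 74.7 to 99.9 and 23.6 to 58.7, without overlap for either. Slc1a3, of the same list, did overlap, at 570 to 675 CPM in controls and 285 to 792 in cKO. The fitted difference was lower in cKO for 6 of the 6 markers rostrally, and for 5 caudally with 1 higher. The part of these markers in the Gabrg1 values was not tested. Gabrd was at 3.29, 2.02 and 1.99 RPKM in the rostral controls, with the high value in T4, and at 1.41, 1.87 and 1.29 RPKM in the rostral cKO pieces. In T4 rostral the striatal markers were also highest, with 243 CPM against 62.9 to 168 in the other 11 libraries, and their part in Gabrd was not tested.

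Transcripts of 44 further genes that encode partners of these receptors (partner genes) were also read. They cover AMPA and kainate receptor auxiliary subunits, scaffolds, pentraxins, inhibitory postsynaptic proteins, GABA-B auxiliary subunits and organisers of metabotropic receptors. Between the pieces of control cortex 18 of 44 passed (40.9%, against 12.2% of all genes), 7 higher caudally and 11 lower. The count was 7 without T8 (5.25% of all genes passed), 11 without T4 (8.21%), 11 without T70 (7.19%) and 0 in the fit over all 12 libraries (0.361%). The pentraxins, proteins that cluster AMPA receptors, passed in 3 of 3, with Nptxr rising from 63.2 ± 3.63 to 88.3 ± 1.82 RPKM (log2 fold change 0.48, SE 0.05, adjusted p = 0.000296). Of the 13 AMPA receptor auxiliary genes 2 were higher and 4 lower, among them Gsg1l, which slows recovery of AMPA receptors from desensitisation (-0.62, SE 0.08, adjusted p = 0.000843), and Frrs1l, an assembly factor (-0.29, SE 0.05, adjusted p = 0.00303). Of the 13 scaffold and trafficking genes 2 were higher and 5 lower, including Shank2 (-0.39, SE 0.06, adjusted p = 0.00294). Of the 7 inhibitory postsynaptic genes 0 passed in edgeR and 2 had an unadjusted p under 0.05 (28.6%, against 25.8% of all genes).

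The other lists were small: 1 of the 2 kainate receptor auxiliary genes and 1 of the 3 GABA-B auxiliary genes were lower caudally, and 0 of the 3 metabotropic receptor organisers passed. In edgeR 0 of the 44 genes passed in cKO between the pieces, in the interaction, or between genotypes in rostral cortex, caudal cortex or the sums. At an unadjusted p under 0.05 there was 1 of them in cKO between the pieces (2.27%, against 1.66% of all genes) and 0 in the interaction (3.55% of all genes). Between genotypes there were 3 in rostral cortex (6.82%, against 9.49%), 2 in caudal cortex (4.55%, against 14.5%) and 2 in the sums (4.55%, against 15.4%). DESeq2 called 1 gene in the sums (1.74% of all genes) and 0 in the other 4 comparisons.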

How the data were processed

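The authors deposited expected counts per gene for 12 libraries, 1 rostral and 1 caudal library from each of 6 mice. Per the submitters' processing notes, STAR 2.7.8a and featureCounts 2.0.3 were used on build GRCm39. The annotation version and the treatment of strand and of multi-mapped reads were not given in the sources used here. Of the values of a library 9.69% to 14.3% were fractional, and the counts were rounded to whole numbers.

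The members, lists and tests were chosen with earlier results of these data known. Each comparison was fitted across all genes with edgeR 4.0.16 in R 4.3.3 (filterByExpr, TMM scaling, robust quasi-likelihood F test, Benjamini-Hochberg adjustment, threshold 0.05) on the libraries of its own groups. The standard error is the size of the log2 fold change divided by the square root of F. RPKM values are TMM-scaled CPM over all 12 libraries, divided by the exon length in the deposited files. Alternatives were DESeq2 1.42.0, limma 3.58.1 voom with duplicateCorrelation for the sums, RLE and upper-quartile scaling, other filters on low counts, sex as a covariate, 1 fit over all libraries, the animal as a block, each animal left out, and other lengths. The edgeR fits between control pieces and of the interaction were also run on simulated counts, which had no animal effect and no library standing apart. Such counts cannot show how the tests behave on these data. The genotype fits and DESeq2 were not simulated.

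Libraries with the same T number in their titles were taken to come from 1 animal. Their deviations from the group means correlated across genes with r = 0.27 (T4), 0.247 (T8), 0.333 (T70), 0.0306 (T3), -0.00254 (T6) and 0.461 (T80). The labels do not give litters, so the genotype p-values measure the spread between these animals, with 1 library or 1 sum from each. The main fits between pieces and of the interaction had no term for the animal. Both pieces of a pup entered them as separate libraries, so their p-values measure the spread between libraries within groups and leave out the pairing. Named are Egfr, all members by level, members with an adjusted p under 0.05, filled to 4 per comparison by smallest p, and up to 4 partner genes per comparison. Other members named for overlap, for T6 or for contrast within a class were chosen after their values were seen. Marker lists (11 lists, 55 genes) are given as summed CPM. Promoter sequences are from RefSeq on GRCm38.p6, a build other than that of the counts.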

Additional observations from a re-analysis of the deposited data

How the results depend on the processing

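Among the single-gene values, 380 kept their direction and side of the threshold, 48 lost the call, 10 gained it and 0 reversed. Between the pieces of control cortex 14 members were called, 6 to 11 with 1 animal left out and 1 in the fit over all 12 libraries. Of the partner genes 18 were called, 7 to 11 with 1 animal left out and 0 in that fit. With the animal as a replicate block 15 members were called (15.4% of all genes), Gabra2 being added. With block and 1 animal left out, chosen after seeing the data, 7 to 16 members and 9 to 22 partner genes were called. The shares of all genes in those fits are not given, so these counts cannot be set against them. The full block gave 0 members in cKO and in the interaction, with 0.0% of all genes in both. Members called between genotypes with 1 animal left out were 0 to 2 in rostral cortex, 0 to 1 in caudal cortex and 0 to 3 in the sums, and 0 to 2 in the interaction; partner genes were 0 to 1, 0 to 1, 0 to 2 and 0 to 2. All of these calls appeared without T6, in fits whose cKO animals were T3 and T80 alone. DESeq2 called 1 member in caudal cortex, 2 in the sums and 1 partner gene in the sums, and no filter on low counts 1 in each. Sex as a covariate left 0 members called, with 0.0% of all genes in rostral cortex, 0.00966% in caudal cortex and 0.00436% in the sums.

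Shares without length were 30.6% for Gria1, 71.4% for Grin2b among Grin and 92.9% among Grin2, 35.3% for Grik5 (Grik3 led with 39.8%), 18.7% for Grm3 (Grm5 led with 57.1%), 29.8% for Gabra5 (Gabra2 led with 34.2%), 49.8% for Gabrb2 and 56.2% for Gabrg3. With the longest coding transcript, also chosen after seeing the data, they were 39.1% for Gria1, 37.7% and 83.4% for Grin2b, 53.4% for Grik5, 32.5% for Grm3, 77.1% for Gabrb2 and 68.4% for Gabbr1. The cause of the changed calls was not tested. With 3 animals a group, small differences may pass unseen, and Grin3b, Grm6 and Gabra6 had at most 24 counts in a library.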
